A study of Bos taurus with 20 samples.

Results

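RAB GTPases and VPS vesicle sorting genes were examined in bovine embryos at day 14 that had been vitrified or were fresh. The group was taken by name: all protein-coding genes of the deposited table with a symbol made of RAB, a number and at most 1 letter, or beginning with VPS and a number. This gave 83 of the 15542 listed genes, 53 RAB and 30 VPS genes. Of these, 72 (43 RAB and 29 VPS) had at least 10 reads in at least 2 libraries and were tested, and 11 were not. RAB proteins are small GTPases that label membranes of the secretory and endocytic system and recruit the factors that move, tether and fuse vesicles. VPS genes, named after yeast mutants in vacuolar protein sorting, encode the coat, tether and scission machineries that work on the same membranes: retromer, HOPS and CORVET, GARP and EARP, and ESCRT. In the trophectoderm (TE), the outer epithelium of the embryo from which the placenta forms, these routes serve uptake from the uterine fluid, secretion and the sorting of proteins to the apical and basolateral surface.

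The 4 groups were 2 whole embryos that had been vitrified, 6 fresh whole embryos, 7 samples of TE isolated from vitrified embryos and 5 samples of TE isolated from fresh embryos. Vitrification is cryopreservation in which the sample is cooled into a glass without ice crystals. The stage, day 14, was shared by all groups. The labels name no breed, vitrification protocol, number of embryos per sample or batch. A batch and a group that coincide cannot be told apart, and p-values measure the spread between these samples only, which may be technical. RNA was sequenced and levels are RPKM, that is, reads scaled to a library's depth and to gene length, with length taken over the whole genomic span including introns. Levels of different genes are therefore not comparable, and each gene is compared only with itself.

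Libraries held 6.01 to 14.5 M reads (M, mega). The 5 fresh TE libraries stood apart: the share of reads in listed genes was 38.0 ± 2.83% (SD, n = 5), against 57.5 to 63.9% in the other 15 libraries, and mitochondrial messenger RNA made up 1.09 to 1.41% of their listed-gene reads, against 3.01 to 9.87% in the others. Fresh TE 1 and 2, and fresh TE 3 and 4, were near-identical (chi-square per degree of freedom 1.88 and 1.48, against 11.9 to 22.6 for the other fresh TE pairs). As deposited, the fold of means of the median gene was 2.45 for vitrified against fresh TE and 1.30 for vitrified against fresh whole embryos. Most counts and changes of the RAB and VPS genes are therefore also given after median-ratio scaling, which sets the typical gene equal between libraries. Levels, folds of means and the overlap of groups in RPKM are as deposited. Levels of different genes are not comparable, so each marker sum below follows its genes of highest RPKM. Of the listed markers of other cell types, 6 of 6 for hypoblast and yolk sac passed as higher in vitrified TE under both scalings. They summed to 669 to 1374 RPKM in vitrified TE and 151 to 327 RPKM in fresh TE, where GATA6 and GATA4 stayed under 0.1 RPKM. APOA1 made up most of both sums, at a mean of 892 RPKM in vitrified TE and 243 RPKM in fresh TE. Epiblast markers (6 listed) summed to 4.19 to 10.2 RPKM in vitrified TE and 1.45 to 3.93 RPKM in fresh TE, with 1 of 6 higher under both scalings. TDGF1, which did not pass, made up most of both sums, at a mean of 4.13 RPKM in vitrified TE and 2.79 RPKM in fresh TE. The 11 trophectoderm markers summed to 1982 to 2994 RPKM in vitrified TE and 2271 to 2891 RPKM in fresh TE. As deposited 6 of them were higher and 4 lower in vitrified TE, and after median-ratio scaling 4 were higher and 5 lower. KRT18 and KRT8 made up most of both sums and went in opposite directions. KRT18 averaged 1518 RPKM in vitrified TE and 2153 RPKM in fresh TE, and KRT8 859 and 163 RPKM. PAG2 averaged 1.73 RPKM in vitrified TE and 61.5 RPKM in fresh TE, and PTGS2 26.0 and 117 RPKM. Blood and immune markers (5 listed) summed to 4.41 to 7.23 RPKM in vitrified TE and 9.80 to 15.9 RPKM in fresh TE. Of the 4 tested, 3 were higher in vitrified TE as deposited and 2 after median-ratio scaling, and 1, AIF1, was lower under both. These marker counts stand beside 69.0% of all genes higher and 6.66% lower as deposited, and 35.1% and 27.5% after scaling. AIF1 made up most of the fresh TE sum, at a mean of 11.4 RPKM in fresh TE and 0.632 RPKM in vitrified TE. The part of these differences in the RAB and VPS results was not tested.

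The first comparison asked how trafficking genes of the TE differ after vitrification, with 7 vitrified and 5 fresh samples. RAB and VPS genes moved in both directions relative to the bulk of the transcriptome. RAB5C, RAB25, RAB7A, RAB8A, RAB34, VPS25, VPS28 and VPS72 were higher in vitrified TE by more than the median gene, whereas RAB13, VPS54 and VPS33A were lower under each of the 4 scalings tried. By limma over all 10599 genes tested, with Benjamini-Hochberg adjustment and a threshold of 0.05, 46 of the 72 tested genes were higher, 6 lower and 20 did not pass. Over all genes 69.0% were higher and 6.66% lower, 75.6% in all. After median-ratio scaling, 26 RAB and VPS genes were higher and 22 lower, against 35.1% and 27.5% of all genes, 62.6% in all. The median fold of mean RPKM was 2.03 over the tested RAB and VPS genes and 2.45 over all genes tested, with 30 genes above and 42 below that of the median gene (49.5% of all genes were above it). The groups did not overlap for 37 genes higher and 3 lower in vitrified TE, against 54.6% and 3.96% of all genes. Of the RAB genes 28 were higher and 2 lower (19 and 11 after median-ratio scaling), and of the VPS genes 18 were higher and 4 lower (7 and 11 after median-ratio scaling). Counts by role below stand beside the same shares of all genes, 69.0% higher and 6.66% lower as deposited and 35.1% and 27.5% after scaling. Roles hold few genes, and no role was tested against these shares. In bulk samples fewer cells of a type and less RNA per cell cannot be told apart.

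**Figure D1:**
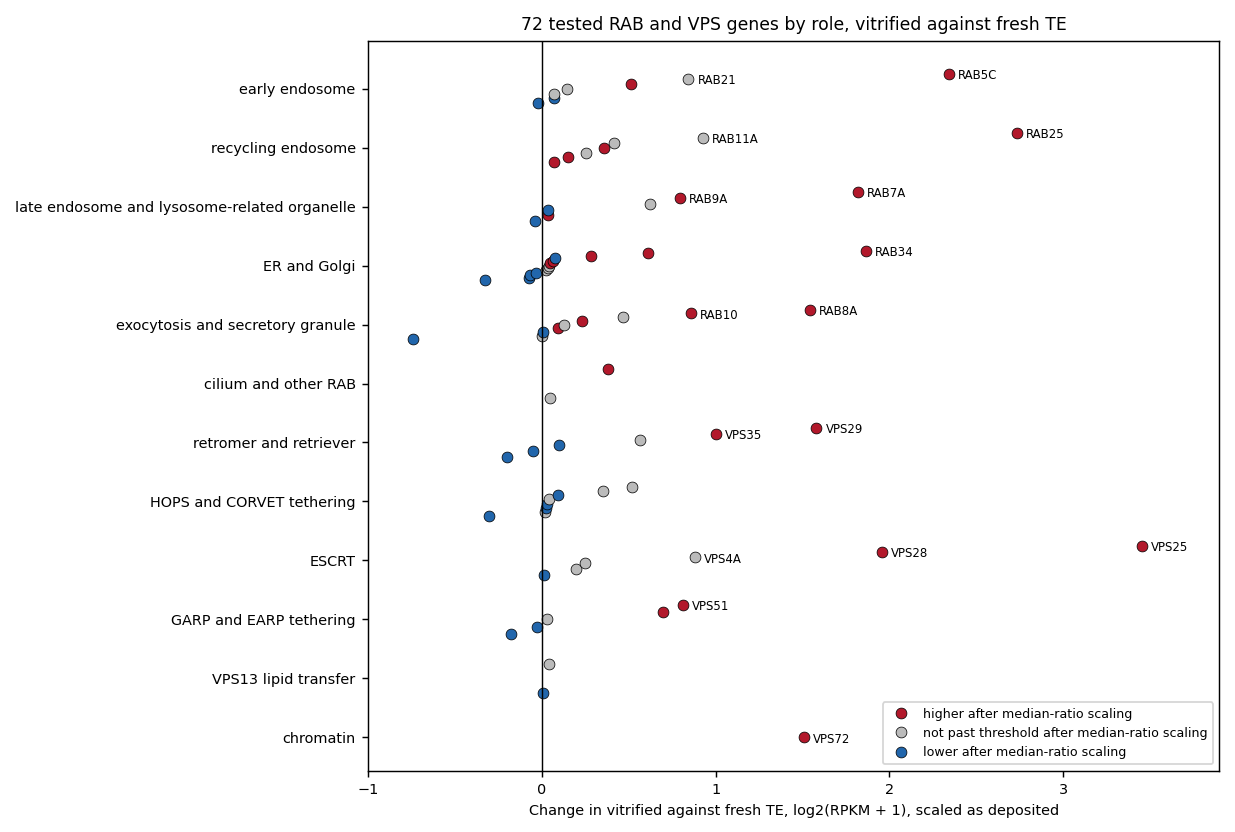
Change of each of the 72 tested RAB and VPS genes in vitrified against fresh TE on the log2(RPKM + 1) scale as deposited (x axis), by role (rows), with colours for the call after median-ratio scaling and names for changes over 0.75. VPS25 lies farthest to the right at 3.45, and the 26 genes called higher after scaling (red) and 22 called lower (blue) occur side by side in most roles.

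Early endosome genes were led by RAB5C, 1 of the RAB5 GTPases that drive fusion of incoming endocytic vesicles. RAB5C (chromosome 19, 42898002 to 42903082 on the UMD3.1 assembly) had 6.38 to 10.3 RPKM in vitrified TE (median 8.41) and 0.829, 0.688, 0.877, 0.730 and 1.15 RPKM in fresh TE. Every vitrified TE sample was above every fresh TE sample, and the mean was 9.90-fold higher. The change was 2.34 ± 0.156 on the log2(RPKM + 1) scale (SE; adjusted p = 2.2e-10) and 1.65 after median-ratio scaling. RAB5A, its paralogue, had 0.373 to 0.825 RPKM in vitrified TE (median 0.578) and 0.183, 0.0706, 0.0360, 0.194 and 0.169 RPKM in fresh TE, again without overlap, on 2 to 10 reads per fresh TE library (0.51 ± 0.0909, adjusted p = 5.5e-05). RAB5C and RAB5A were the 2 early endosome genes that stayed higher after median-ratio scaling. Of the 7 tested, 5 were higher as deposited, among them RAB4A, a fast recycling GTPase, and VPS45, which chaperones endosomal SNAREs. RAB21, which acts in integrin traffic, was 2.44-fold higher as deposited with overlapping groups (adjusted p = 0.00039), and its row spans only 0.645 kb of chromosome X with 2 to 11 reads per fresh TE library. RAB22A and RAB31 did not pass as deposited and were called lower after scaling.

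Recycling endosome genes, which return internalised proteins to the surface, were higher in 7 of 7 tested as deposited and in 4 of 7 after median-ratio scaling, with none lower, beside 69.0% and 35.1% of all genes higher. RAB25 (chromosome 3, 14755582 to 14762654) is the RAB11 relative of epithelia and acts in apical recycling. It had 11.3 to 20.4 RPKM in vitrified TE (median 14.8) and 1.37, 0.895, 1.40, 1.75 and 2.07 RPKM in fresh TE. The groups were far apart, with a 10.4-fold higher mean in vitrified TE and a change of 2.73 ± 0.226 (adjusted p = 3.5e-09; 1.92 after scaling). RAB11A, the general recycling GTPase, had 12.1 to 19.96 RPKM in vitrified TE (median 17.6) and 8.39, 7.33, 6.52, 6.92 and 10.7 RPKM in fresh TE. These groups did not overlap either, but the change of 0.93 ± 0.189 (adjusted p = 0.00023) turned to -0.10 after median-ratio scaling and no longer passed. RAB11B averaged 0.377 ± 0.0881 RPKM in vitrified TE and 0.0746 ± 0.0296 RPKM in fresh TE (SD; adjusted p = 1.3e-05, still called after scaling). RAB14, which links Golgi and endosomes, averaged 0.823 ± 0.164 RPKM in vitrified TE and 0.368 ± 0.129 RPKM in fresh TE (0.41 ± 0.0736, adjusted p = 5.3e-05; 0.03 and not called after scaling). RAB12 and RAB17 were called under both scalings on 0 to 2 reads per fresh TE library, and RAB35 as deposited with overlapping groups.

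Late endosome genes included RAB7A, the GTPase of late endosomes and lysosomes. RAB7A (chromosome 22, 59862214 to 59877344) had 4.06 to 5.96 RPKM in vitrified TE (median 4.62) and 1.06, 0.847, 0.370, 0.454 and 0.445 RPKM in fresh TE. Vitrified TE samples lay close together and all above fresh TE, where the near-identical libraries 1 and 2 were higher than the other 3. The mean was 7.42-fold higher and the change 1.82 ± 0.130 (adjusted p = 5.4e-10; 1.21 after scaling). RAB9A, which serves transport from late endosomes to the Golgi, averaged 1.70 ± 0.510 RPKM in vitrified TE and 0.537 ± 0.110 RPKM in fresh TE (0.79 ± 0.108, adjusted p = 2.4e-06; 0.28 and still called after scaling). RAB24, associated with autophagy, averaged 1.52 ± 0.398 RPKM in vitrified TE and 0.633 ± 0.250 RPKM in fresh TE, with overlapping groups (0.62 ± 0.131, adjusted p = 0.00031; 0.09 and not called after scaling). RAB7B, a paralogue of RAB7A, and RAB32, a GTPase of lysosome-related organelles, did not pass as deposited and were called lower after scaling.

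Among exocytosis genes, 6 of 9 were higher and 1 lower as deposited, and 4 were higher and 2 lower after median-ratio scaling. RAB8A (chromosome 7, 7899037 to 7919168), which carries vesicles to the basolateral membrane and the cilium, had 2.01 to 2.66 RPKM in vitrified TE (median 2.36) and 0.0965, 0.0579, 0.221, 0.184 and 0.148 RPKM in fresh TE. The spread within either group was small against the distance between them: 16.5-fold in the means and 1.54 ± 0.144 on the log2 scale (adjusted p = 1.8e-08; 1.22 after scaling). RAB10, its close relative in exocytosis, had 1.03 to 1.40 RPKM in vitrified TE (median 1.21) and 0.239, 0.213, 0.196, 0.277 and 0.274 RPKM in fresh TE. RAB10 changed by 0.86 ± 0.0736 (adjusted p = 5.9e-09; 0.50 after scaling). RAB3B, a GTPase of regulated secretion, had 0.0443 to 0.0957 RPKM in vitrified TE and 0 to 4 reads per fresh TE library, and passed under both scalings. RAB13 (chromosome 3, 16511100 to 16515183), which delivers proteins to tight junctions, went the other way. It had 3.83 to 6.04 RPKM in vitrified TE (median 4.34) and 8.84, 8.65, 9.67, 8.48 and 6.81 RPKM in fresh TE. No vitrified TE sample reached the lowest fresh TE sample, and RAB13 fell by 0.74 ± 0.114 as deposited (adjusted p = 1.1e-05) and by 1.73 after scaling. Across the 4 groups fresh TE alone was apart for RAB13, since whole embryos had 4.56 and 5.55 RPKM when vitrified and 3.65 to 5.07 RPKM when fresh.

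In the ER and Golgi class 5 of 13 were higher and 1 lower as deposited, and 5 were higher and 5 lower after median-ratio scaling. The secretory GTPases of 1 pair differed. RAB1A, which drives transport between the endoplasmic reticulum and the Golgi, had 4.07 to 7.75 RPKM in vitrified TE (median 6.63) and 5.93, 5.43, 5.70, 5.87 and 8.08 RPKM in fresh TE. These ranges overlapped almost fully (-0.08 ± 0.154, adjusted p = 0.66), and after median-ratio scaling RAB1A was lower by 1.06 on the log2 scale. RAB1B, its paralogue in the same step (chromosome 29, 44972615 to 44977022), had 0.280 to 0.815 RPKM in vitrified TE (median 0.665) and 0, 0.0378, 0, 0.0624 and 0 RPKM in fresh TE, which is 0 to 2 reads per library. RAB1B was higher under both scalings (0.61 ± 0.0924, adjusted p = 8.5e-06; 0.49 after scaling). RAB34 (chromosome 19, 20698684 to 20702071), a Golgi GTPase that positions lysosomes and acts in cilium formation, had 1.26 to 5.66 RPKM in vitrified TE (median 2.02) and 0.0478, 0, 0, 0.0812 and 0.0441 RPKM in fresh TE, again 0 to 2 reads per library. Within vitrified TE it stood in samples 1 to 3 at 4.50 to 5.66 RPKM and in samples 4 to 7 at 1.26 to 2.02 RPKM, and every one of them was above fresh TE (1.86 ± 0.321, adjusted p = 3.8e-05; 1.62 after scaling). RAB2B (Golgi) averaged 0.274 ± 0.0285 RPKM in vitrified TE and 0.0464 ± 0.0264 RPKM in fresh TE (adjusted p = 1.1e-05), and RAB30 (Golgi) 0.0393 ± 0.00757 RPKM in vitrified TE and 0.00606 ± 0.00362 RPKM in fresh TE (adjusted p = 1.7e-05). Both stayed called after scaling. RAB18, which associates with lipid droplets and the endoplasmic reticulum, had 1.26 ± 0.351 RPKM in vitrified TE and 1.30 ± 0.135 RPKM in fresh TE (adjusted p = 0.77), and was called lower after scaling. RAB33A was the gene called lower as deposited (-0.33 ± 0.117, adjusted p = 0.017), with overlapping groups. Of the genes with a role in cilia or none assigned, RAB40C, an adaptor of a ubiquitin ligase, averaged 0.454 ± 0.125 RPKM in vitrified TE and 0.116 ± 0.0253 RPKM in fresh TE (0.38 ± 0.0446, adjusted p = 3.8e-07; 0.18 and called after scaling). RAB28 (cilium) averaged 0.0899 ± 0.0288 RPKM in vitrified TE and 0.0546 ± 0.00415 RPKM in fresh TE (adjusted p = 0.020), and its change turned to -0.03 after scaling.

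**Figure D2:**
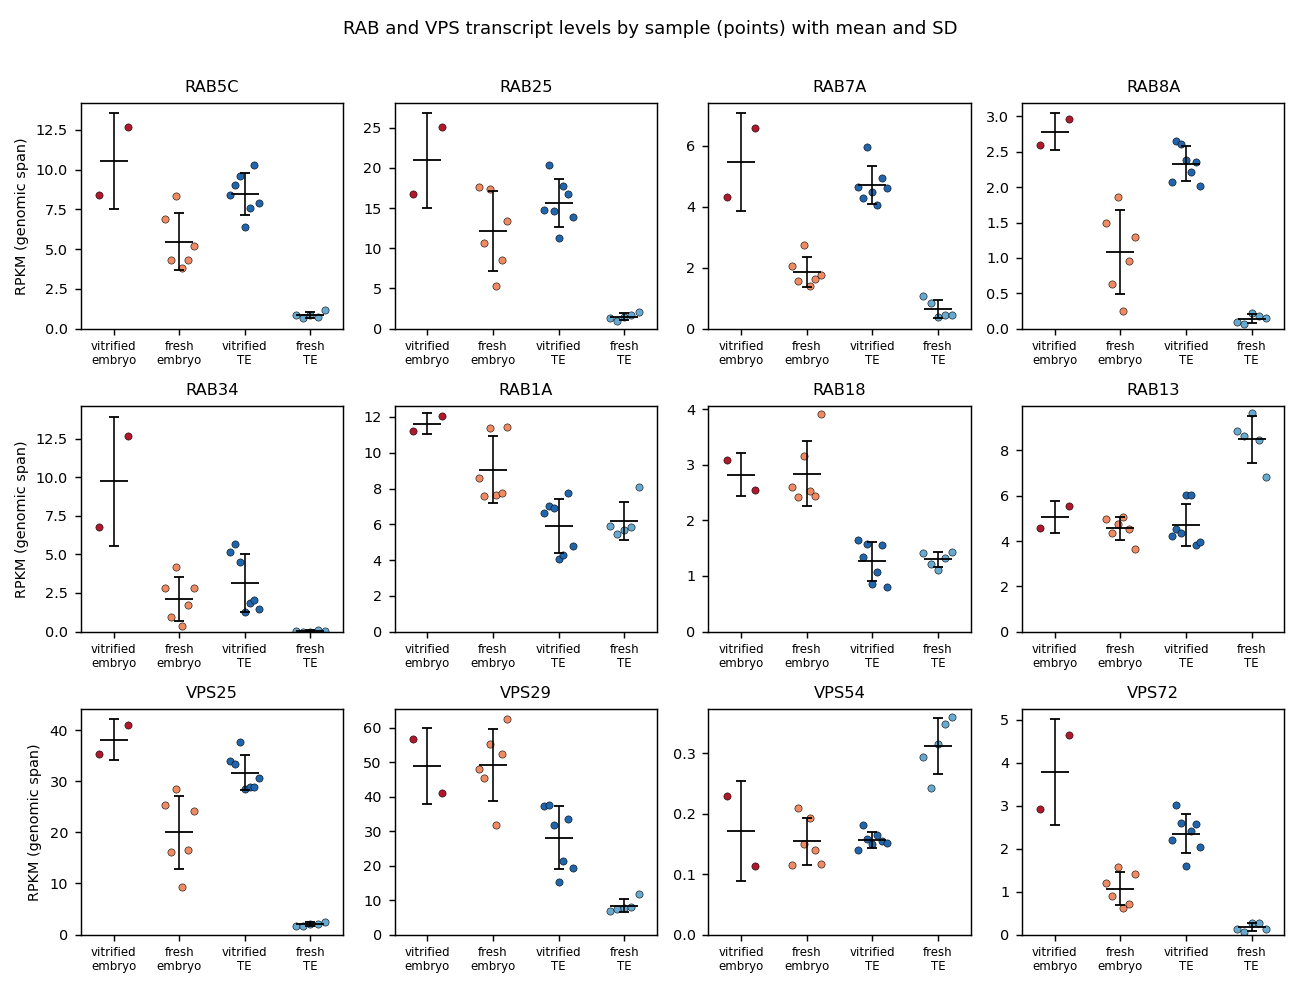
RPKM per genomic span of 12 RAB and VPS genes (y axes, linear from 0) in each sample (points) of the 4 groups, with the mean and SD as bars. Fresh TE is lowest for RAB5C, RAB25, RAB7A, RAB8A, RAB34, VPS25, VPS29 and VPS72, highest for RAB13 and VPS54, and overlaps vitrified TE for RAB1A and RAB18.

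The ESCRT machinery, which sorts ubiquitinated cargo into vesicles inside late endosomes and cuts membrane necks, held the largest change of the 72 tested genes on the log2(RPKM + 1) scale, though not the largest fold of means. VPS25 (chromosome 19, 43446967 to 43451725), a subunit of ESCRT-II, had 28.4 to 37.7 RPKM in vitrified TE (median 30.6) and 1.67, 1.64, 2.01, 2.08 and 2.54 RPKM in fresh TE. The lowest vitrified TE sample was far above the highest fresh TE sample, and the fold of means was 15.9 (3.45 ± 0.192, adjusted p = 2.4e-11; 2.57 after scaling). VPS36, another ESCRT-II subunit, did not share this: it had 1.05 to 1.61 RPKM in vitrified TE (median 1.25) and 1.02, 1.09, 1.30, 1.42 and 1.47 RPKM in fresh TE. Its change was 0.01 ± 0.0810 as deposited (adjusted p = 0.88), and -0.65 and called lower after median-ratio scaling. VPS28, a subunit of ESCRT-I, had 2.46 to 4.81 RPKM in vitrified TE (median 2.91) and 0.0334, 0.0687, 0.131, 0.255 and 0.123 RPKM in fresh TE, on 1 to 9 reads per fresh TE library. VPS28 passed by 1.96 ± 0.216 (adjusted p = 1.6e-07; 1.62 after scaling). VPS4A, the ATPase that takes ESCRT filaments apart, had 2.79 to 4.67 RPKM in vitrified TE (median 3.15) and 1.19, 1.47, 1.22, 1.64 and 1.41 RPKM in fresh TE. The groups were apart and the change was 0.88 ± 0.125 (adjusted p = 4.1e-06), with a fold of means of 2.47 beside 2.45 for the median gene, and VPS4A did not pass after scaling (0.13). In all, 5 of 6 tested ESCRT genes were higher as deposited, and after scaling 2 were higher and 1 lower.

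Retromer, the coat that carries cargo from endosomes back to the Golgi or the surface, was higher for its 3 core subunits as deposited. VPS29 had 15.3 to 37.7 RPKM in vitrified TE (median 31.7) and 6.96, 7.45, 7.76, 8.05 and 11.8 RPKM in fresh TE. VPS35 had 2.05 to 3.26 RPKM in vitrified TE (median 2.99) and 1.05, 0.765, 0.700, 0.706 and 0.903 RPKM in fresh TE. Neither gene's groups overlapped, and both stayed higher after scaling (VPS29 1.58 ± 0.218, adjusted p = 2.9e-06, 0.54 after scaling; VPS35 1.003 ± 0.108, adjusted p = 1.2e-07, 0.36 after scaling). VPS26A averaged 4.07 ± 0.799 RPKM in vitrified TE and 2.43 ± 0.488 RPKM in fresh TE (0.56 ± 0.127, adjusted p = 0.00061), which turned to -0.30 after scaling without passing. VPS26B, the alternative to VPS26A, was lower at 0.441 ± 0.122 RPKM in vitrified TE, against 0.653 ± 0.122 RPKM in fresh TE, with overlapping groups (-0.20 ± 0.0594, adjusted p = 0.0053; lower after scaling too). Its row overlaps the end of NCAPD3 on the opposite strand. The retriever subunits VPS26C and VPS35L, which serve a parallel recycling route, did not pass as deposited and were called lower after scaling.

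The tethering complexes were mixed. HOPS and CORVET hold late and early endosomes together before fusion. Of the 8 genes in this role, 4 were higher and 1 lower as deposited, with 0 higher and 4 lower after median-ratio scaling. The 8 include VPS33B, which works with its own partners rather than HOPS. Of their shared core, VPS11 averaged 1.15 ± 0.186 RPKM in vitrified TE and 0.502 ± 0.0513 RPKM in fresh TE (adjusted p = 3.5e-05), and VPS18 averaged 1.30 ± 0.309 RPKM in vitrified TE and 0.797 ± 0.238 RPKM in fresh TE (adjusted p = 0.0024). After scaling their changes were 0.04 and -0.22, and neither passed. VPS33A, the core subunit that binds SNAREs, had 0.212 to 0.442 RPKM in vitrified TE (median 0.365) and 0.537, 0.541, 0.810, 0.739 and 0.692 RPKM in fresh TE. Here every vitrified TE sample was below every fresh TE sample, and VPS33A fell by 0.30 ± 0.0575 (adjusted p = 0.00011). GARP and EARP tether vesicles from endosomes at the Golgi and at recycling endosomes, and share VPS51, VPS52 and VPS53. VPS52 had 0.696 to 1.06 RPKM in vitrified TE (median 0.870) and 0.230, 0.180, 0.166, 0.125 and 0.102 RPKM in fresh TE. VPS51 had 1.14 to 1.63 RPKM in vitrified TE (median 1.40) and 0.214, 0.208, 0.615, 0.514 and 0.349 RPKM in fresh TE. Both were higher without overlap and after either scaling (VPS52 0.69 ± 0.0581, adjusted p = 4.2e-09; VPS51 0.81 ± 0.0866, adjusted p = 1.0e-07). VPS53 averaged 0.0449 ± 0.00918 RPKM in vitrified TE and 0.0252 ± 0.00298 RPKM in fresh TE. It was called higher as deposited and not called after scaling. The subunits that tell the complexes apart were lower: VPS54, specific to GARP, had 0.139 to 0.181 RPKM in vitrified TE (median 0.155) and 0.294, 0.243, 0.315, 0.349 and 0.360 RPKM in fresh TE. VPS54 fell by 0.18 ± 0.0287 (adjusted p = 1.5e-05) without overlap, and VPS50, specific to EARP, fell by 0.03 ± 0.0111 with overlapping groups (adjusted p = 0.015). Both were called lower after scaling as well.

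VPS13C and VPS13D form bridges through which lipids pass between organelles. VPS13C averaged 0.0409 ± 0.00692 RPKM in vitrified TE and 0.0135 ± 0.00699 RPKM in fresh TE (adjusted p = 2.2e-05; not called after scaling), and VPS13D did not pass as deposited and was called lower after scaling. VPS72 carries a VPS name but encodes a chaperone of the histone variant H2A.Z, and was higher in vitrified TE. It had 1.60 to 3.02 RPKM in vitrified TE (median 2.42) and 0.137, 0.0703, 0.258, 0.267 and 0.126 RPKM in fresh TE. The groups were wide apart, at 13.7-fold in the means and 1.51 ± 0.127 on the log2 scale (adjusted p = 4.5e-09; 1.16 after scaling).

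Paralogues offered a measure that no scaling of a library can move, the share of 1 gene in the reads of its pair within each library. It was chosen after the values were seen, for 13 pairs of tested genes with the same number and another letter that were picked by hand, leaving out the RAB3 genes and VPS26C. The shares are of reads without correction for span, so they are compared between libraries and do not rank the 2 genes of a pair. How reads that match both genes of a pair were counted is not given in the sources used here.
In TE, shares of 7 of the 13 pairs did not overlap between vitrified and fresh samples. No such share was computed for other gene pairs, so whether the count is particular to these paralogues was not tested. Of single genes as deposited, a measure that scaling can move, 54.6% higher and 3.96% lower did not overlap in the same comparison. Each of the 7 had an exact two-sided permutation p of 0.0025, the smallest that 7 against 5 samples allow (0.014 after Benjamini-Hochberg adjustment over 39 tests). With the near-identical fresh TE libraries averaged the exact permutation p was 0.017, the adjusted p was 0.065, and none of the 39 tests passed. RAB1B took 0.924 to 1.79% of the reads of RAB1A and RAB1B in vitrified TE and 0 to 0.162% in fresh TE, a difference of 1.37 percentage points. RAB2B took 8.03 to 12.6% of its pair with RAB2A in vitrified TE and 0.549 to 2.68% in fresh TE. In both pairs the share of the paralogue with fewer reads was larger in vitrified than in fresh TE.

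The shares of RAB7B and RAB8B were smaller in vitrified than in fresh TE. RAB7B made up 4.86 ± 2.57% of its pair in vitrified TE and 33.7 ± 8.56% in fresh TE. RAB8B made up 29.5 ± 3.29% in vitrified TE and 69.4 ± 14.7% in fresh TE. VPS26B made up 7.12 ± 2.62% of the retromer pair in vitrified TE and 15.5 ± 3.15% in fresh TE. VPS33B, which works with its own partners rather than HOPS, made up 43.6 ± 5.88% of its pair with VPS33A in vitrified TE and 26.8 ± 3.64% in fresh TE. VPS13D made up 50.3 ± 4.51% of its pair with VPS13C in vitrified TE and 73.2 ± 11.2% in fresh TE. Of the other pairs, RAB11B with RAB11A and RAB39B with RAB39A had overlapping groups (adjusted exact permutation p = 0.025 for both, 0.065 with libraries averaged, the second on 3 to 9 reads per fresh TE library), and RAB5C with RAB5A, RAB6, RAB33 and VPS4 did not pass.

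Whole embryos followed the same direction for RAB1B, RAB2B, RAB7B and RAB8B, without overlap, but 2 against 6 samples cannot give an exact p below 0.071 (0.12 after adjustment). RAB7B made up 1.61 and 3.35% of its pair in the vitrified whole embryos and 12.5 to 40.2% in fresh ones. RAB8B made up 21.4 and 31.2% in the vitrified whole embryos and 31.7 to 75.2% in fresh ones. Between fresh whole embryos and fresh TE, the shares of RAB2B (10.1% in whole embryos and 1.62% in TE on average), VPS26B (3.18% in whole embryos and 15.5% in TE) and RAB33B (46.7% in whole embryos and 19.7% in TE) differed without overlap (exact permutation p = 0.0043, 0.017 after adjustment, and 0.066 after adjustment with the near-identical libraries averaged).

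**Figure D3:**
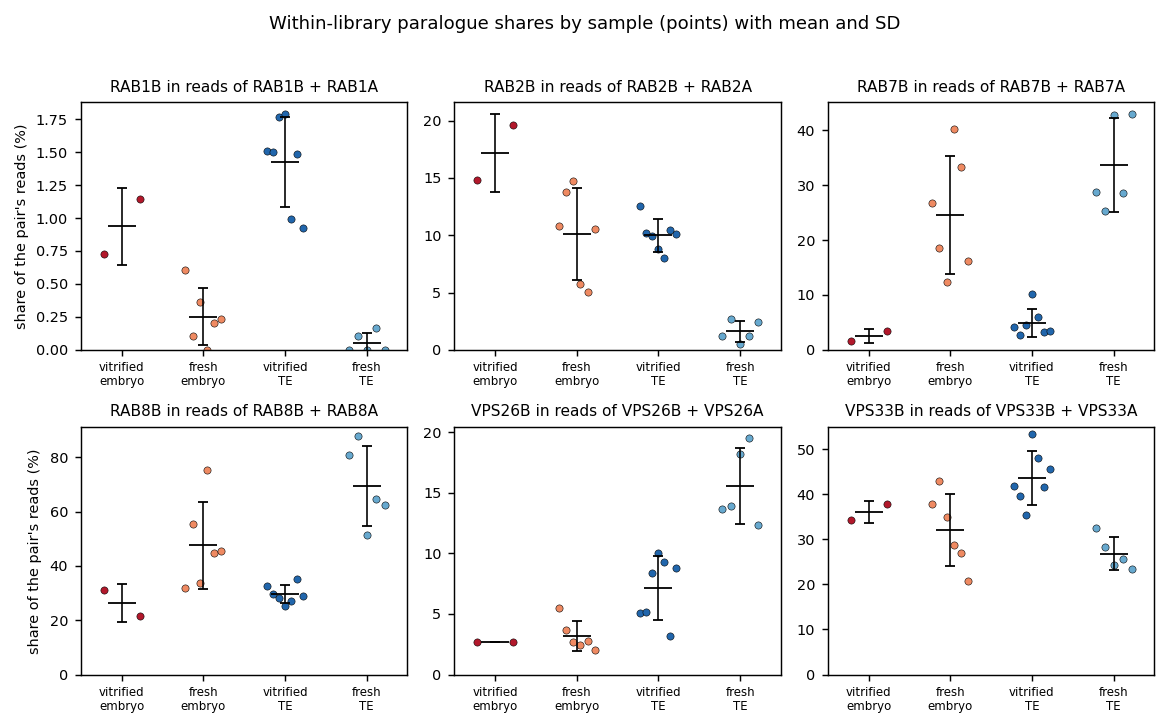
Share of 1 paralogue in the reads of its pair (y axes, %, linear from 0) in each library (points) of the 4 groups, with the mean and SD, for 6 of the 13 pairs. The vitrified and fresh TE points do not overlap in any panel: shares of RAB1B, RAB2B and VPS33B are higher and those of RAB7B, RAB8B and VPS26B lower in vitrified TE.

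The comparison of vitrified with fresh whole embryos rests on 2 vitrified samples. In these embryos 17 of the 72 tested genes were higher and 1 was lower, against 26.9% and 3.94% of all genes (30.9% in all). After median-ratio scaling 9 were higher and 3 lower, against 10.6% and 6.99% (17.6% in all). The groups did not overlap for 19 genes higher and 2 lower, against 29.4% and 6.54% of all genes. The median fold of means was 1.29 over the tested RAB and VPS genes and 1.30 over all genes. RAB34, VPS72 and RAB7A had the largest changes on the log2(RPKM + 1) scale. RAB34 had 6.76 and 12.7 RPKM in vitrified whole embryos and 0.340 to 4.15 RPKM in fresh ones (median 2.25), without overlap (1.86 ± 0.447, adjusted p = 0.0041). VPS72 had 2.92 and 4.65 RPKM in vitrified whole embryos and 0.625 to 1.57 RPKM in fresh ones (median 1.05; 1.21 ± 0.176, adjusted p = 0.00011). RAB7A had 4.32 and 6.597 RPKM in vitrified whole embryos and 1.39 to 2.75 RPKM in fresh ones (median 1.68; 1.17 ± 0.181, adjusted p = 0.00016). For each of these both vitrified embryos were above all 6 fresh embryos, and the call held after median-ratio scaling.

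The same was true of RAB5A, RAB5C, RAB8A, RAB1B, VPS28 and VPS4A. RAB5A had 1.68 and 2.005 RPKM in vitrified whole embryos and 0.507 to 1.20 RPKM in fresh ones (adjusted p = 0.0014). RAB8A had 2.60 and 2.97 RPKM in vitrified whole embryos and 0.245 to 1.86 RPKM in fresh ones (adjusted p = 0.0023). VPS28 had 5.45 and 7.16 RPKM in vitrified whole embryos and 0.779 to 4.02 RPKM in fresh ones (adjusted p = 0.0067). VPS25 had 35.3 and 40.9 RPKM in vitrified whole embryos and 9.36 to 28.5 RPKM in fresh ones (0.98 ± 0.268, adjusted p = 0.0099), and was not called after scaling. The same held for VPS11, VPS18, RAB2B and RAB9A. RAB25 had 16.8 and 25.1 RPKM in vitrified whole embryos and 5.34 to 17.6 RPKM in fresh ones, with overlap (0.81 ± 0.315, adjusted p = 0.058). The retromer genes did not pass: VPS29 had 56.7 and 41.1 RPKM in vitrified whole embryos and 31.7 to 62.7 RPKM in fresh ones (adjusted p = 1.0), and VPS35 had 3.87 and 4.13 RPKM in vitrified whole embryos and 2.52 to 3.91 RPKM in fresh ones (adjusted p = 0.10). RAB7B was the gene called lower, at 0.0732 ± 0.0547 RPKM in vitrified whole embryos (n = 2) and 0.291 ± 0.130 RPKM in fresh ones (n = 6; -0.26 ± 0.0770, limma adjusted p = 0.015). Leaving out vitrified whole embryo 2 leaves 1 sample in that group. Fewer of the 72 genes were then called, and fewer of all genes as well. The 2 vitrified whole embryos also differed in the epiblast gene POU5F1, at 0.316 and 20.6 RPKM, against 1.05 to 6.01 RPKM in fresh whole embryos. The part of this in the RAB and VPS values was not tested.

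Whether vitrified and fresh samples differed alike in whole embryos and in TE was addressed by the difference of the changes, whole embryo minus TE. The fresh TE libraries that stood apart enter this difference, and their part in it was not tested. For 20 of the 72 tested genes the change was smaller or more negative in whole embryos, and for 4 it was larger, against 28.4% and 3.98% of all genes (32.3% in all). After median-ratio scaling the counts were 7 and 14, against 13.1% and 14.0% (27.2% in all). Among genes higher in vitrified TE, some of those described above had smaller changes in whole embryos under both scalings. The difference was -2.48 ± 0.330 for VPS25 (adjusted p = 2.9e-05), -1.93 ± 0.388 for RAB25 (adjusted p = 0.0010) and -1.49 ± 0.267 for RAB5C (adjusted p = 0.00039). It was -0.61 ± 0.126 for RAB10 (adjusted p = 0.0013), -0.58 ± 0.0997 for VPS52 (adjusted p = 0.00025) and -0.064 for RAB3B (adjusted p = 0.016). The differences of VPS28, RAB8A and VPS72 did not pass under either scaling. RAB13 (0.87 ± 0.196, adjusted p = 0.0025), VPS33A (0.32 ± 0.0986, adjusted p = 0.019) and VPS54 (0.20 ± 0.0493, adjusted p = 0.0045), which were lower in vitrified TE, differed in the other direction under both scalings. Among others, the differences of VPS29, VPS35, RAB11A, RAB14, RAB21, RAB24, RAB40C, RAB7A and VPS51 passed as deposited and not after scaling. The difference for RAB34 was -0.00 ± 0.550 (adjusted p = 1.0), with a standard error too wide to show that its changes were alike. Without vitrified whole embryo 1 the count of differences fell to 15, and VPS54, RAB3B, RAB7A, RAB11A, RAB14, RAB21 and VPS35 no longer passed. Without vitrified whole embryo 2, RAB11A and VPS33A did not.

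**Figure D4:**
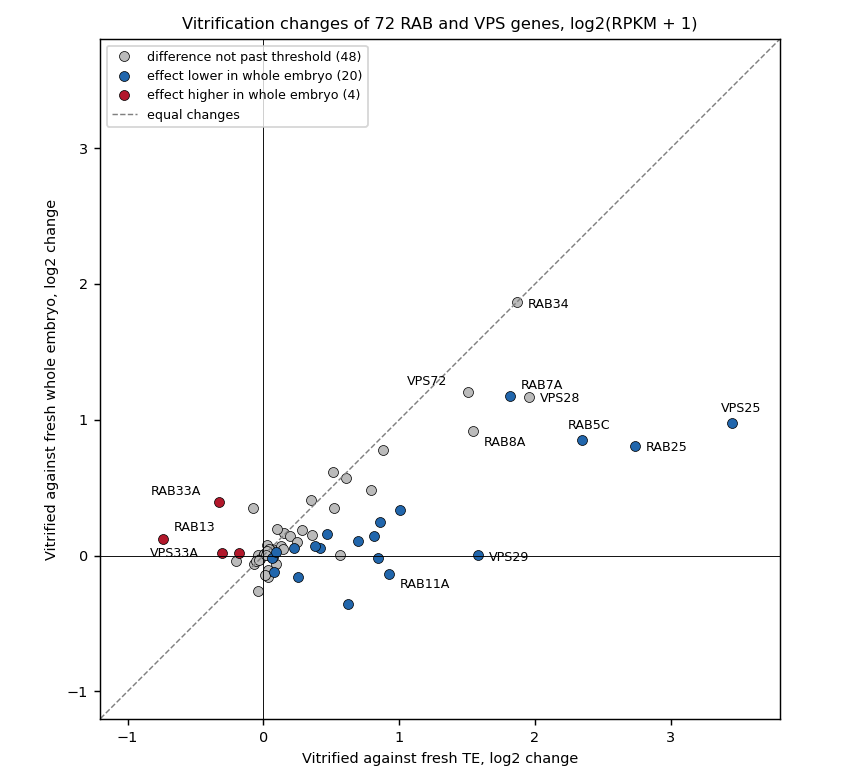
Change of the 72 tested genes with vitrification in TE (x axis) and in whole embryos (y axis), both on the log2(RPKM + 1) scale, with the dashed line at equal changes and colours for the tested difference of the changes. VPS25, RAB25 and RAB5C lie far below the line, RAB34 on it, and RAB13 at -0.74 in TE and 0.12 in whole embryos above it.

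Whole embryos hold the epiblast and hypoblast beside the TE, and were set against isolated TE within each treatment. Among fresh samples 43 of the 72 genes were higher in whole embryos than in TE and 4 lower, against 60.0% and 5.97% of all genes (66.0% in all). After median-ratio scaling they were 23 and 22, against 29.9% and 25.2% (55.1% in all). The groups did not overlap for 35 genes higher and 4 lower, against 48.4% and 2.94% of all genes. The fresh TE libraries that stood apart also enter this comparison, which shares them with that of vitrified against fresh TE. VPS25 had 9.36 to 28.5 RPKM in fresh whole embryos (median 20.3) and averaged 1.99 ± 0.367 RPKM in fresh TE (2.74 ± 0.199, adjusted p = 2.0e-09). VPS29 averaged 49.2 ± 10.5 RPKM in fresh whole embryos and 8.41 ± 1.94 RPKM in fresh TE (2.41 ± 0.226, adjusted p = 4.3e-08). RAB11A averaged 27.8 ± 7.71 RPKM in fresh whole embryos and 7.96 ± 1.66 RPKM in fresh TE (1.66 ± 0.196, adjusted p = 6.8e-07), and these 3 stayed higher after scaling. RAB13 and VPS54 were lower in fresh whole embryos than in fresh TE under both scalings (-0.77 ± 0.118 and -0.19 ± 0.0297).

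For whole embryo against TE, the fold of means of the median gene was 1.16 among vitrified samples and 2.18 among fresh ones. The vitrified comparison has 2 against 7 samples and the fresh one 6 against 5, so their counts are not set against each other. Among vitrified samples 11 of the 72 genes were higher in whole embryos and 2 lower, against 15.3% and 3.59% of all genes (18.9% in all). After median-ratio scaling 3 were higher and 2 lower, against 3.08% and 2.52% (5.59% in all). The groups did not overlap for 16 genes higher and 4 lower, against 20.4% and 5.94% of all genes. RAB5A, RAB18 and RAB1A were the 3 that stayed higher. RAB5A averaged 1.84 ± 0.232 RPKM in vitrified whole embryos and 0.615 ± 0.162 RPKM in vitrified TE (0.82 ± 0.124, adjusted p = 0.00093). RAB18 had 3.09 and 2.55 RPKM in vitrified whole embryos and 0.802 to 1.65 RPKM in vitrified TE (0.77 ± 0.153, adjusted p = 0.0044). RAB1A had 11.2 and 12.0 RPKM in vitrified whole embryos and 4.07 to 7.75 RPKM in vitrified TE (0.90 ± 0.211, adjusted p = 0.0096). In the 3 genes no vitrified TE sample reached either whole embryo. RAB15 and RAB40C were lower in whole embryos under both scalings, RAB40C at 0.232 and 0.178 RPKM in vitrified whole embryos and 0.296 to 0.700 RPKM in vitrified TE (-0.27 ± 0.0611, adjusted p = 0.0085). The other 8 genes higher in whole embryos, RAB34, RAB10, RAB9A, VPS26A, VPS35 and VPS72 among them, passed as deposited but not after scaling. Leaving out vitrified whole embryo 2 leaves 1 sample in that group. Fewer of the 72 genes and fewer of all genes were then called, and RAB1A and RAB40C no longer passed.

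Genes that act on RABs and VPS complexes, a list of 177 symbols of which 149 were tested, were read in the same fits. In vitrified against fresh TE 114 were higher and 4 lower, beside 69.0% and 6.66% of all genes, and 42 and 39 after median-ratio scaling, beside 35.1% and 27.5%. In vitrified against fresh whole embryos 44 were higher and 2 lower, beside 26.9% and 3.94% of all genes, and 14 and 4 after scaling, beside 10.6% and 6.99%. RABGGTA, the subunit of the enzyme that attaches the lipid anchor to RABs, averaged 2.54 ± 0.415 RPKM in vitrified TE and 0.317 ± 0.157 RPKM in fresh TE (1.43, adjusted p = 9.9e-10). NAPA, the adaptor through which used SNAREs are taken apart, averaged 1.35 ± 0.217 RPKM in vitrified TE and 0.0793 ± 0.0247 RPKM in fresh TE (1.12, adjusted p = 3.1e-10). Both were higher in vitrified whole embryos as well (adjusted p = 0.0016 for RABGGTA and 3.8e-05 for NAPA). The smallest p of each other class in TE fell to GAPVD1, an exchange factor for RAB5 (0.35), RAB11FIP4, a RAB11 effector (0.41), TBC1D14, a protein with a RAB GTPase-activating domain (0.21), SNX27, a retromer partner (0.28), STAM2, of ESCRT-0 (0.67), TGFBRAP1, a CORVET subunit (0.45), and EXOC2, of the exocyst (0.04), all higher under both scalings. The 4 lower in vitrified TE, named after their values were seen, were MYO5B, the motor that binds RAB11, EXOC7, of the exocyst, and the SNAREs STX12 and BET1. BET1 fell to 1.63 ± 0.121 RPKM in vitrified TE, against 4.19 ± 0.799 RPKM in fresh TE (-0.97, adjusted p = 2.1e-08).

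The 11 genes that were not tested were RAB19, RAB23, RAB26, RAB27A, RAB29, RAB37, RAB38, RAB3D, RAB40B, RAB5B and VPS9D1. They had at most 16 reads in any library. RAB5B had 1 to 4 reads in every vitrified TE library and 0 in every fresh TE library, and RAB3D had 2 to 6 reads in vitrified TE and 0 to 1 in fresh TE. For the other 9 the ranges of vitrified and fresh TE overlapped. With no filter on low values, 55 of the 83 genes were called in vitrified against fresh TE. Of all 15542 genes in that fit, 7663 were called higher and 1555 lower. Among the 72 tested genes, those with a short genomic span had larger folds: the 16 under 10 kb had a median fold of 4.88 in vitrified against fresh TE and the 56 longer ones 1.77, whereas over all genes tested these were 2.5002 and 2.43. Spearman's rho of fold and span was -0.36 over the 72 genes and 0.02 over 10496 genes. It is a description across genes that share libraries, and genes are not independent replicates.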

How the data were processed

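Whole-embryo and TE messenger RNA was sequenced, and the authors deposited 1 table with the RPKM of each listed gene in 20 libraries. Per the submitters' processing notes, FastQC, STAR 2.5.3a, the UMD3.1 assembly and Partek were used. That the deposited values are RPKM was inferred from the values, which give whole reads over a gene's genomic span for 94.6 to 95.9% of values per library (tolerance 0.1 read) once an offset of 0.01, which the table holds in place of 0, was subtracted. Recovered reads gave depth and a filter of at least 10 reads in at least 2 libraries.

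Changes were tested on log2(RPKM + 1) by limma 3.58.1 with trend and robust settings (R 4.3.3, statmod 1.5.0), 1 fit over the 4 groups, with Benjamini-Hochberg adjustment over all 10599 genes. A fold change on this scale understates the change of low genes. Folds of means are of linear RPKM. Alternatives were median-ratio, listed-gene and quantile scaling, a pseudocount of 0.1, no filter, only the groups compared, averaged near-identical libraries, each library left out and a replicate block. Median-ratio scaling with a pseudocount of 0.1 was added after the data were seen. The code was tested on simulated data.

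The genes, roles and lists were chosen with earlier results of these data known. Values are printed for up to 3 genes of smallest p per role in TE, the 4 highest and 4 lowest relative to the median gene, up to 4 of smallest p in each other comparison and 8 anchor genes (RAB1A, RAB5A, RAB7A, RAB11A, RAB25, VPS35, VPS4A and VPS72). For the pathway list it is the smallest p per class. Other genes were named after their values were seen, to complete small counts and paralogue pairs. Tests of paralogue shares and the description by span were added after values were seen. The labels do not say that replicate numbers pair samples. Correlations were -0.19 to 0.31 for same-numbered samples and -0.33 to 0.33 for the others.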

Additional observations from a re-analysis of the deposited data

Results flagged for a closer look

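In 3 of 111 groups of 4 to 10 samples a single library lay far from the rest, where chance flags about 1 in 20 groups. RAB1A was 8.079 RPKM in fresh TE 5, with 5.928 RPKM the next highest fresh TE value. VPS29 was 11.81 RPKM in the same library, with 8.05 RPKM the next highest. RAB9A was 2.732 RPKM in vitrified TE 6, with 1.698 RPKM the next highest vitrified TE value.

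For 18 of the named genes the change with vitrification differed between whole embryos and TE by the tested difference (whole embryo minus TE, log2 scale, limma, adjusted over all genes). The difference passed as deposited and after median-ratio scaling for VPS25 (-2.475), RAB25 (-1.926), RAB5C (-1.49), RAB10 (-0.6124), VPS52 (-0.5845), RAB3B (-0.06357), RAB13 (0.8673), VPS33A (0.3178) and VPS54 (0.201). It passed as deposited only for VPS29 (-1.577), RAB11A (-1.062), RAB24 (-0.9756), RAB21 (-0.8602), VPS35 (-0.6702), VPS51 (-0.6693), RAB7A (-0.6434), RAB14 (-0.3584) and RAB40C (-0.3083).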

How the results depend on the processing

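Of the 72 tested genes, 52 were called in vitrified against fresh TE (52 to 54 with 1 library left out) and 47 in fresh whole embryos against fresh TE (45 to 48). Leaving out 1 of fresh TE 1 to 4 keeps its near-identical library. With these libraries averaged 51 were called in vitrified against fresh TE, and 6697 of all 10599 genes were higher and 616 lower. Of the results of named genes over all comparisons, 176 then kept their call and 9 no longer passed. The 18 calls in vitrified against fresh whole embryos became 10 with only the groups compared, 8 with median-ratio scaling and a pseudocount of 0.1, and 4 to 22 with 1 library left out, 4 being without vitrified whole embryo 2. The 13 calls in vitrified whole embryos against vitrified TE became 6 with a pseudocount of 0.1, 8 with no filter, 5 under each of listed-gene, median-ratio and quantile scaling and under median-ratio scaling with a pseudocount of 0.1, and 3 with only the groups compared. They became 2 to 15 with 1 library left out, 2 being without vitrified whole embryo 2, 8 without vitrified TE 5 and 7 without vitrified TE 7. The 24 differences of effects became 15 to 26, with 15 without vitrified whole embryo 1. Calls over all 10599 genes shifted too. In vitrified against fresh whole embryos, 2852 higher and 418 lower became 1921 and 236 with only the groups compared. In vitrified whole embryos against vitrified TE, 1617 higher and 381 lower became 705 and 81 with only the groups compared. With median-ratio scaling they became 326 and 267. The cause of these shifts was not tested.

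With the replicate number as a replicate block the counts were 53 in TE, 16 in whole embryos, 48 in fresh whole embryos against fresh TE, 4 in vitrified whole embryos against vitrified TE and 18 for the differences. The labels do not say that the numbers pair samples, so what these counts mean for the effects cannot be told.

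The median change of the tested genes less that of all genes (log2) was -0.082 in vitrified against fresh TE, 0.0192 with no filter, -0.0190 with median-ratio scaling and -0.0901 to -0.0570 with 1 library left out. In fresh whole embryos against fresh TE it was -0.000394, 0.0310 with no filter and -0.0218 to 0.00734 with 1 library left out.

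Scaling turned the sign of some genes in vitrified against fresh TE. With median-ratio scaling, quantile normalization and median-ratio scaling with a pseudocount of 0.1, in that order, RAB11A was -0.10, -0.035 and -0.11, RAB28 -0.032, -0.084 and -0.20, VPS18 -0.22, -0.30 and -0.37, VPS26A -0.30, -0.35 and -0.36, and VPS36 -0.65, -0.72 and -1.02 (-0.44 with listed-gene scaling). With quantile normalization RAB14 was -0.056, VPS11 -0.048 and VPS13C -0.017. In fresh whole embryos against fresh TE the same 3 settings gave RAB14 -0.11, -0.15 and -0.24, RAB1A -0.40, -0.45 and -0.44 (-0.10 with listed-gene scaling), RAB28 -0.0068, -0.044 and -0.041, VPS11 -0.095, -0.14 and -0.20, VPS13C -0.0020, -0.026 and -0.013, VPS36 -0.28, -0.30 and -0.40 (-0.069 with listed-gene scaling), and VPS4A -0.48, -0.50 and -0.71. RAB40C was -0.14 with quantile normalization and -0.38 with median-ratio scaling and a pseudocount of 0.1. The difference of effects of VPS36 was 0.34 with quantile normalization. Genes at 0 to 4 reads per fresh TE library, RAB34, RAB1B and RAB3B among them, are limited by depth.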

Other observations

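Within vitrified TE, levels of several trafficking genes differed between libraries. VPS29 was 37.3, 37.7, 31.7, 15.3, 21.5, 33.5 and 19.4 RPKM in vitrified TE 1 to 7. RAB11A was 19.87, 19.96, 19.4, 12.2, 12.3, 17.6 and 12.1 RPKM in the same libraries. RAB18 was 1.65, 1.34, 1.57, 0.862, 1.08, 1.56 and 0.802 RPKM in them. For these 3 genes libraries 1, 2, 3 and 6 were the 4 highest. The labels name no grouping of these samples, and no test was made of it.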
